A study of Mus musculus with 16 samples.

Results

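The G1/S brakes and cyclins are 10 genes that set when a cell passes from G1 into DNA synthesis. They are Cdkn1a and Cdkn1b, Rb1, Rbl1 and Rbl2, Ccnd1, Ccnd2 and Ccnd3, Ccne1, and Cdk2. Each was found in the deposited expression table as the row whose Ensembl identifier maps to its symbol, which gave 10 of the 41202 identifiers in the table. Values were FPKM (fragments scaled to transcript length and to the mapped fragments of the library), so levels of different genes can be set side by side.

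RNA was sequenced from mouse embryonic stem cells of mixed 129/C57BL/6 strain in 4 groups of 2 libraries. The wild-type line (v65) and the Dgcr8-/- line (ES1) were each sampled in 2iL, a medium with inhibitors of MEK and GSK3 plus the cytokine LIF, and after 48 h in N2B27 medium with bFGF and KSR. No other allele or agent was named for any group. Since each genotype was 1 line, an effect of Dgcr8 loss and a difference between the lines cannot be told apart. The libraries of a group were called biological replicates, without a statement of what was repeated, so the p-values measure the spread between these libraries. The labels give the molecule as polyA RNA while the design text speaks of total RNA. Small RNA libraries, 2 for each of the time points 0, 12, 24 and 48 h of the same course, were made from the wild-type line alone.

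D-type cyclins activate Cdk4 and Cdk6, and cyclin E, encoded by Ccne1, activates Cdk2; both kinds of kinase phosphorylate the pocket proteins pRB, p107 and p130 (Rb1, Rbl1, Rbl2), which otherwise hold E2F transcription factors in check. The inhibitors p21 (Cdkn1a) and p27 (Cdkn1b) bind cyclin-CDK complexes. Mouse embryonic stem cells are known for a short G1 phase, and miRNAs of the miR-290 and miR-302 clusters have been reported to act on Cdkn1a and Rbl2 transcripts in them. Dgcr8 is the RNA-binding partner of Drosha in the Microprocessor, which cuts most miRNA hairpins from their primary transcripts.

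The Dgcr8 transcript was lower but not absent in the knockout libraries, and markers of cell types were read in each group. Dgcr8 stood at 18.3 and 19.2 FPKM in wild type in 2iL and 20.7 and 20.9 at 48 h, against 9.11 and 9.33 and then 7.84 and 7.80 in the knockout; the labels do not say which exons the deletion covers. All 9 listed pluripotency markers reached a mean of 1 FPKM in every group. They summed to 2063 to 2108 FPKM in wild type and 2187 to 2296 FPKM in the knockout in 2iL, and to 1275 to 1322 and 1689 to 1787 FPKM at 48 h. At 48 h 7 of the 9 were called higher and 2 lower in the knockout, against 33.3% and 38.5% of all entries tested. The interaction was called for 6, each positive, against 42.8% of all entries called and 21.1% called positive. Nanog, of the naive state, was at 5.38 and 5.31 FPKM in wild type and 56.1 and 56.7 FPKM in the knockout at 48 h. Of 10 fibroblast and feeder markers, 1 to 3 reached a mean of 1 FPKM. The 10 summed to 1.94 to 2.75 FPKM in 2iL and to 13.5 to 18.3 FPKM at 48 h, with Fap at 0 in all libraries. At 48 h Thy1 was at 9.20 and 9.26 FPKM in wild type and 5.84 and 5.35 FPKM in the knockout. Dcn was at 2.22 and 1.74 FPKM in wild type and 11.9 and 12.6 FPKM in the knockout. Acta2 was at 2.58 and 1.93 FPKM in wild type and 0 in the knockout. Col1a1, Col1a2 and Col3a1 stayed under 1 FPKM in all libraries. Of 5 markers of 2-cell-like cells, 0 reached a mean of 1 FPKM in wild type and 4 in the knockout, with sums of 1.70 to 2.96 and 10.1 to 18.5 FPKM. The trophectoderm markers summed to 20.6 to 21.3 FPKM in wild type and 32.8 to 35.7 FPKM in the knockout in 2iL, and to 2.83 to 2.89 and 8.77 to 9.23 FPKM at 48 h. Tfap2c made up most of the 2iL sums, at 18.9 and 18.3 FPKM in wild type and 28.7 and 31.1 FPKM in the knockout. At 48 h it was at 1.19 and 0.897 FPKM in wild type and 7.35 and 7.09 FPKM in the knockout. Cdx2, Elf5 and Hand1 stayed under 1 FPKM in all libraries. Primitive streak and mesoderm markers summed to 2.285 to 2.884 FPKM in wild type and 9.80 to 10.5 FPKM in the knockout in 2iL. At 48 h they summed to 0.632 to 0.895 and 1.21 to 1.35 FPKM. Neuroectoderm markers summed to 3.49 to 3.51 FPKM in wild type and 4.10 to 4.11 FPKM in the knockout in 2iL. Their sums at 48 h were 3.64 to 3.69 and 8.26 to 9.27 FPKM. Primitive endoderm markers summed to 0.716 to 2.21 FPKM over the 8 libraries. The part of these marker levels in the differences below was not tested, and in bulk RNA fewer cells of a type and less RNA per cell cannot be told apart. The FPKM sums were 475271 to 548453 per library and 11415 to 12030 entries reached 1 FPKM; read depth is unknown.

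Cdkn1a fell over 48 h in both genotypes and was higher in the knockout in both conditions. The gene (ENSMUSG00000023067, chr17:29090979-29100722, GRCm38.p6) encodes p21, which binds and blocks cyclin-CDK complexes. In wild type it was at 66.4 and 62.9 FPKM in 2iL and at 20.8 and 21.7 FPKM at 48 h. The knockout had 246 and 253 FPKM in 2iL and 144 and 141 FPKM at 48 h. The 4 groups did not overlap, and the lowest knockout library at 48 h was above the highest wild-type library in 2iL. Differences were tested with limma on log2(FPKM + 1) with Benjamini-Hochberg adjustment over all 13172 entries tested, and a difference is called below when its adjusted p was under 0.05; the log2 scale with an added 1 understates changes of low genes.

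On that scale Cdkn1a fell by 1.56 (SE 0.04, adjusted p = 2.9e-07) in wild type over 48 h, a 3.04-fold fall of the mean FPKM. In the knockout it fell by 0.80 (SE 0.04, adjusted p = 1e-05), or 1.75-fold. The fall in the knockout was smaller than in wild type, with a difference between the 2 changes (the interaction) of 0.76 (SE 0.06, adjusted p = 0.00011). The knockout stood 3.86-fold above wild type in 2iL and 6.72-fold above it at 48 h, with log2 differences of 1.93 (adjusted p = 4.2e-07) and 2.69 (adjusted p = 4.2e-08). Of the 13172 entries tested, 184 had a higher log2 difference in 2iL and 166 at 48 h.

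The promoter window of Cdkn1a is shown because Cdkn1a is a well known transcriptional target of p53. The sequence is RefSeq's for GRCm38.p6 and runs from 250 bases before to 50 after a transcript start, on the plus strand at chr17:29090729-29091028. Capitals mark a p53-type element (2 adjacent 10-base units of the p53 consensus, at most 1 mismatch in 20 bases, a rule set after this sequence was seen).
Cdkn1a: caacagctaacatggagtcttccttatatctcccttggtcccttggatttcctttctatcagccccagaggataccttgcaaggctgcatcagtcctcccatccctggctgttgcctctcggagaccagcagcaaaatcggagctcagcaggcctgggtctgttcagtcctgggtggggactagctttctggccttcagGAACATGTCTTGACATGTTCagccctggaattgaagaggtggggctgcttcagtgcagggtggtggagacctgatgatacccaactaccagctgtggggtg
The match lay at -51 to -32 from this start, which is upstream of the start in the gene's second window, and had 1 mismatch. It was found in 29 of 32851 RefSeq promoter windows of this length (0.0883%), in 1 of the 9 windows held for the members, and in 1 of 12 windows of the other p53 pathway genes listed below. The second window of Cdkn1a, at chr17:29093519-29093818, had none. A match of letters describes the window and no binding was measured.

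Cdkn1b, which encodes the related inhibitor p27, showed no called change in any comparison. The gene (ENSMUSG00000003031, chr6:134920401-134925525) was at 13.6 and 14.1 FPKM in wild type in 2iL and at 12.9 and 14.8 FPKM at 48 h. The knockout had 12.6 and 13.1 FPKM in 2iL and 13.7 and 13.4 FPKM at 48 h. All 8 libraries lay between 12.6 and 14.8 FPKM, and the wild-type 48 h pair overlapped each of the other 3 groups. The 95% interval of the log2 difference ran from -0.17 to 0.16 for the wild-type change (adjusted p = 0.95) and from -0.09 to 0.24 for the knockout change (adjusted p = 0.41). Between genotypes it ran from -0.27 to 0.06 in 2iL (adjusted p = 0.24) and from -0.19 to 0.15 at 48 h (adjusted p = 0.8). Within a library, the level of Cdkn1a was 4.87 and 4.47 times that of Cdkn1b in wild type in 2iL and 1.62 and 1.47 times at 48 h. In the knockout this ratio of FPKM was 19.5 and 19.4, then 10.5 and 10.5.

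**Figure D1:**
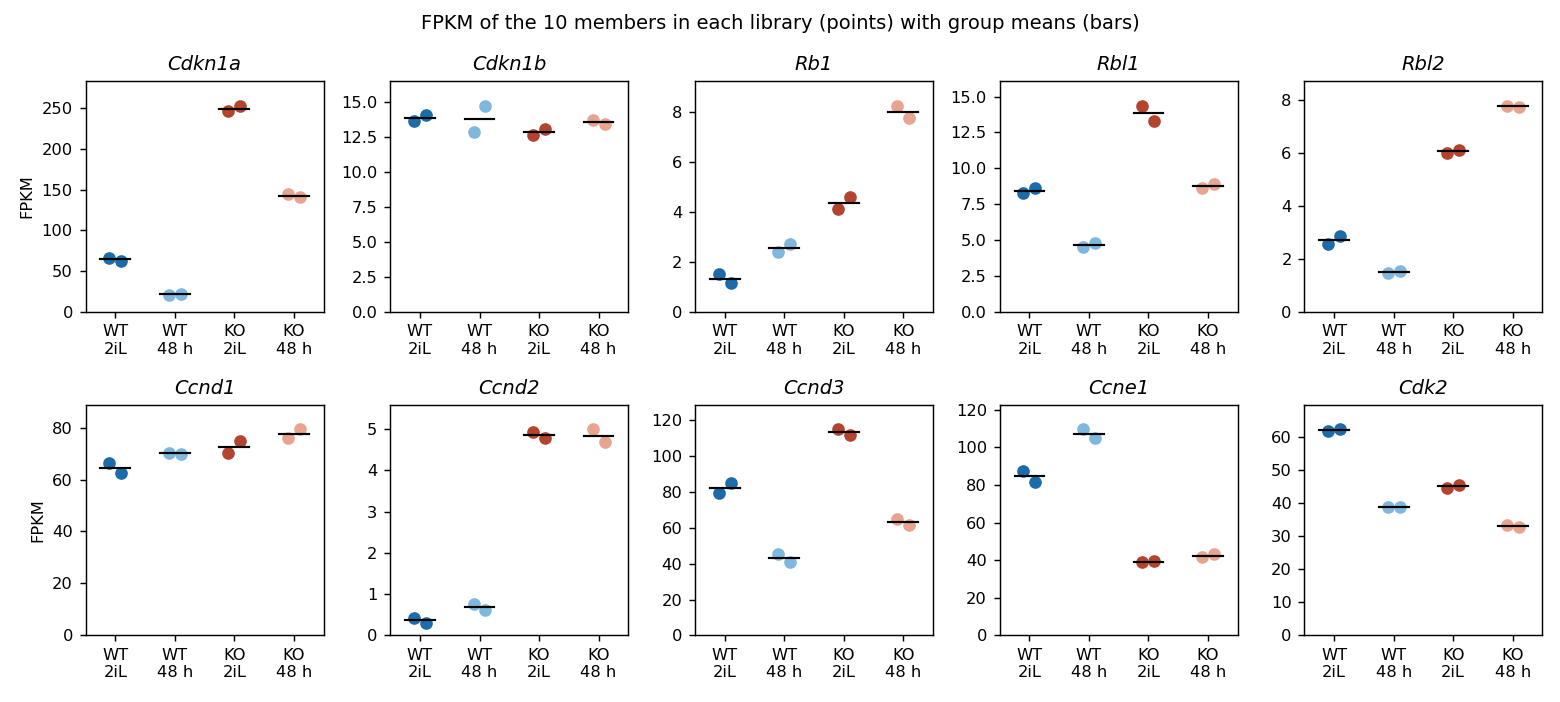
FPKM of the 10 genes in each of the 8 libraries (points, 2 per group) with the group mean (bars); WT is wild type, KO is the Dgcr8-/- line, and each panel has its own vertical axis from 0. Cdkn1a is lowest in wild type at 48 h (20.8 and 21.7 FPKM) and highest in the knockout in 2iL (246 and 253 FPKM), while Cdkn1b stays between 12.6 and 14.8 FPKM in all libraries.

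All 3 pocket protein genes were higher in the knockout, in 2iL and at 48 h, but they differed in how they changed over time. Rb1 rose in both genotypes, Rbl1 fell in both, and Rbl2 fell in wild type and rose in the knockout. Rb1 (ENSMUSG00000022105, chr14:73192858-73325951) encodes pRB, the founding pocket protein, and overlaps Lpar6 and Mir687 in the annotation. It was at 1.50 and 1.15 FPKM in wild type in 2iL and at 2.40 and 2.73 FPKM at 48 h. In the knockout it was at 4.13 and 4.58 FPKM and then at 8.25 and 7.76 FPKM. No 2 groups overlapped, and every knockout library was above every wild-type library.

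In limma's fit Rb1 rose by 0.62 in wild type (SE 0.11, adjusted p = 0.0018) and by 0.75 in the knockout (SE 0.11, adjusted p = 0.00098). The interaction of 0.13 had a 95% interval from -0.22 to 0.48 and was not called (adjusted p = 0.52). The knockout was higher by 1.21 in 2iL (adjusted p = 5.8e-05) and by 1.34 at 48 h (adjusted p = 2.3e-05), ratios of mean FPKM of 3.29 and 3.12. A second entry under the same identifier was at 0 in 6 libraries, did not pass the filter and was not joined to this one.

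Rbl1 (ENSMUSG00000027641, chr2:157145893-157204534) encodes p107, itself a known E2F target, and overlaps the pseudogene Gm14277. Wild type had 8.29 and 8.60 FPKM in 2iL and 4.52 and 4.82 FPKM at 48 h. The knockout had 14.4 and 13.3 FPKM in 2iL and 8.66 and 8.92 FPKM at 48 h, so the knockout at 48 h lay just above wild type in 2iL. The log2 change was -0.74 in wild type (SE 0.07, adjusted p = 8e-05) and -0.60 in the knockout (SE 0.07, adjusted p = 0.00034). Their difference of 0.14 was not called (95% interval -0.09 to 0.37, adjusted p = 0.29). Between genotypes the differences were 0.65 in 2iL (adjusted p = 0.00014) and 0.79 at 48 h (adjusted p = 3.5e-05).

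The promoter window of Rbl1 is printed as the only member window with an E2F-type match. It is RefSeq's sequence on the minus strand at chr2:157204485-157204784 (GRCm38.p6), over the same span of 250 bases before to 50 after the start, with the match in capitals.
Rbl1: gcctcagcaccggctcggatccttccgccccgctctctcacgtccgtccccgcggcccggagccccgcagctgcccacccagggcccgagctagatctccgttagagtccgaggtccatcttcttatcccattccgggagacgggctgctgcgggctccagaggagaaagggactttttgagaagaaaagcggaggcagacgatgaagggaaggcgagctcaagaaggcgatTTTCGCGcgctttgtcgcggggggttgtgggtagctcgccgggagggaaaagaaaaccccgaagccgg
The letters searched, on both strands, were TTTGGCG and TTTCGCG, and the match in Rbl1 begins at -18 from the start. One or the other was in 777 of 32851 promoter windows (2.4%), in 1 of 9 member windows and in 5 of 13 windows of the E2F target genes listed below (38.5%). The 9 windows belonged to 7 members, and Rb1, Ccnd1 and Ccnd2 had none in the table used.

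Rbl2 was the member whose direction over time differed between the genotypes. It encodes p130, the pocket protein that joins the DREAM repressor complex in resting cells. The gene (ENSMUSG00000031666, chr8:91070057-91123844) overlaps Aktip. It was at 2.57 and 2.85 FPKM in wild type in 2iL and at 1.48 and 1.54 FPKM at 48 h. In the knockout it was at 6.02 and 6.14 FPKM and then at 7.80 and 7.75 FPKM. The 4 groups were separate, with replicates closer to each other than to any other group.

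Rbl2 fell by 0.56 in wild type (SE 0.08, adjusted p = 0.00056) and rose by 0.31 in the knockout (SE 0.08, adjusted p = 0.012). The interaction was 0.87 (SE 0.11, adjusted p = 0.00068). The rise in the knockout was no longer called without either of its 48 h libraries (adjusted p = 0.059 without the first and 0.055 without the second, and 0.0053 to 0.059 over all alternatives); the interaction was called under each of the 15 alternatives that tested it. The ratio of mean FPKM between knockout and wild type was 2.24 in 2iL and 5.14 at 48 h, with log2 differences of 0.93 (adjusted p = 4.1e-05) and 1.80 (adjusted p = 1.1e-06).

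The 3 genes also changed their shares of the summed pocket protein transcripts. Rbl1 made up 67.0% and 68.3% of the sum in wild type in 2iL, and Rb1 12.1% and 9.11%. At 48 h in wild type Rbl1 was at 53.8% and 52.97% and Rb1 at 28.6% and 30.0%. In the knockout at 48 h the 3 were nearly level, with Rbl1 at 35.0% and 36.5%, Rb1 at 33.4% and 31.8%, and Rbl2 at 31.6% and 31.7%. The summed level was 12.4 to 12.6 FPKM in wild type in 2iL and 8.40 to 9.09 FPKM at 48 h, against 24.0 to 24.5 and 24.4 to 24.7 FPKM in the knockout. The sum was lower at 48 h in wild type, while the ranges of the knockout overlapped.

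**Figure D2:**
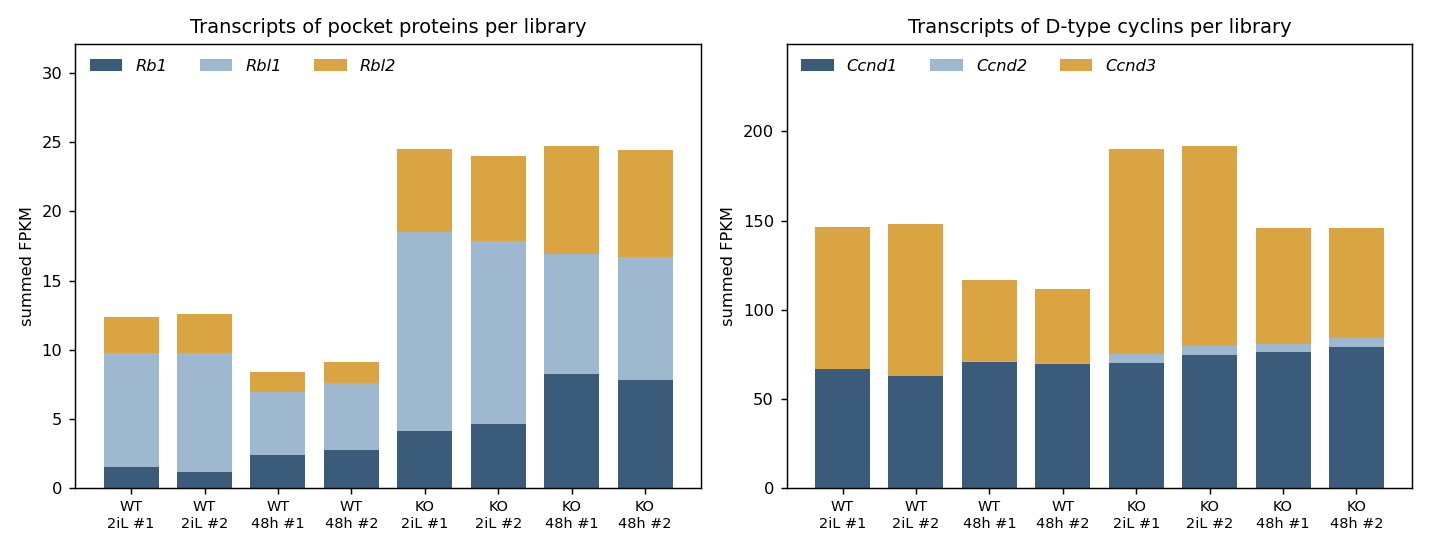
Summed FPKM of the pocket protein genes (left) and the D-type cyclin genes (right) in each library, stacked by gene; bars start at 0 and # gives the replicate. Pocket protein sums are 24.0 to 24.7 FPKM in the 4 knockout libraries against 8.40 to 12.6 FPKM in wild type, and Ccnd3 is the part of the cyclin D bar that is smaller at 48 h in both genotypes.

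Among the D-type cyclins, Ccnd3 fell in both genotypes, Ccnd1 was at 62.6 to 79.3 FPKM throughout, and Ccnd2 was near the floor in wild type and present in the knockout. Ccnd1 (ENSMUSG00000070348, chr7:144929931-144939831, overlapping LTO1) was at 66.4 and 62.6 FPKM in wild type in 2iL and at 70.4 and 69.7 FPKM at 48 h. Knockout libraries had 70.1 and 74.7 FPKM and then 75.9 and 79.3 FPKM. The groups lay close together, and the knockout in 2iL overlapped wild type at 48 h. The change over time was 0.12 in wild type (95% interval -0.002 to 0.24, adjusted p = 0.085) and 0.10 in the knockout (-0.02 to 0.22, adjusted p = 0.15).

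Ccnd1 was higher in the knockout by 0.17 in 2iL (SE 0.05, adjusted p = 0.024) and by 0.15 at 48 h (SE 0.05, adjusted p = 0.033). Neither call was stable. In 2iL it was lost without the second wild-type or the second knockout library (adjusted p = 0.13 and 0.096) and without the intensity trend (0.055), with 0.00027 to 0.13 over all alternatives. At 48 h it was lost without any 1 of the 4 libraries (adjusted p = 0.093 and 0.12 without the first and second wild-type library, 0.054 and 0.17 for the knockout), without the trend (0.072) and with the replicate block (0.053), with 0.00046 to 0.17 over all alternatives.

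Ccnd2 was under 1 FPKM in every wild-type library and at 4.69 to 4.99 FPKM in the knockout. The gene (ENSMUSG00000000184, chr6:127125162-127152188) overlaps the non-coding 9330179D12Rik. Its level was 0.431 and 0.310 FPKM in wild type in 2iL and 0.765 and 0.624 FPKM at 48 h. In the knockout it was 4.92 and 4.77 FPKM in 2iL and 4.99 and 4.69 FPKM at 48 h. It reached 1 FPKM in 0 of 4 wild-type and 4 of 4 knockout libraries and so passed the filter on low values only through the knockout, which means that it had to differ. The ratio of means was 13.1 in 2iL and 6.97 at 48 h, and the log2 differences were 2.10 (adjusted p = 3.6e-06) and 1.79 (adjusted p = 3e-06).

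In wild type Ccnd2 rose by 0.31 at 48 h (SE 0.09, adjusted p = 0.025). This call was lost without the second 2iL library (adjusted p = 0.12), without the first 48 h library (0.13), with no filter (0.053) and with quantile normalization (0.11), and the range over all alternatives was 0.009 to 0.13. In the knockout the change was -0.002 (95% interval -0.22 to 0.22, adjusted p = 0.99).

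Ccnd3 (ENSMUSG00000034165, chr17:47505051-47599689, overlapping Bysl and Gm41590) was at 79.3 and 85.2 FPKM in wild type in 2iL and at 45.2 and 41.2 FPKM at 48 h. The knockout had 115 and 112 FPKM and then 64.7 and 61.8 FPKM. The 4 groups were separate, and the knockout at 48 h lay between the wild-type groups. Ccnd3 fell by 0.91 in wild type (SE 0.06, adjusted p = 1.4e-05) and by 0.83 in the knockout (SE 0.06, adjusted p = 3.7e-05). The falls differed by 0.08, which was not called (95% interval -0.12 to 0.28, adjusted p = 0.48). The knockout was higher by 0.46 in 2iL (adjusted p = 0.00041) and by 0.54 at 48 h (adjusted p = 0.00013).

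As shares of the cyclin D sum, Ccnd1 went from 45.5% and 42.3% in wild type in 2iL to 60.5% and 62.5% at 48 h. In the knockout it went from 36.9% and 39.0% to 52.1% and 54.4%. Ccnd2 made up 0.295% and 0.209% of the sum in wild type in 2iL and 2.59% and 2.49% in the knockout. The leading D-type cyclin was Ccnd3 in 2iL and Ccnd1 at 48 h, in every library of both genotypes.

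Ccne1 and Cdk2, the cyclin E1 and kinase pair that acts late in G1, were the members called lower in the knockout. Ccne1 (ENSMUSG00000002068, chr7:38097984-38107490) was at 87.4 and 81.8 FPKM in wild type in 2iL and at 109.5 and 104.8 FPKM at 48 h. The knockout had 38.9 and 39.5 FPKM in 2iL and 41.5 and 43.1 FPKM at 48 h. Each knockout library was far below each wild-type library. The log2 difference between genotypes was -1.09 in 2iL (SE 0.05, adjusted p = 3.7e-06) and -1.32 at 48 h (SE 0.05, adjusted p = 6.7e-07), which is 2.16-fold and 2.54-fold lower mean FPKM.

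Over 48 h Ccne1 rose by 0.34 in wild type (SE 0.05, adjusted p = 0.00082), and the change of 0.11 in the knockout was not called (95% interval -0.01 to 0.22, adjusted p = 0.11). The interaction was -0.23 (SE 0.07, adjusted p = 0.031). It was not called without the trend term (adjusted p = 0.07) or in 6 of the 8 fits that leave out a library. These adjusted p-values were 0.091 without the second wild-type 2iL library, 0.11 and 0.05 without the first and second wild-type 48 h library, 0.061 without the second knockout 2iL library, and 0.1 and 0.055 without the first and second knockout 48 h library. Over all alternatives they ran from 0.012 to 0.11.

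Cdk2 (ENSMUSG00000025358, chr10:128697938-128705051), the kinase partner of cyclin E, overlaps Pmel. It was at 61.8 and 62.3 FPKM in wild type in 2iL and at 39.0 and 38.9 FPKM at 48 h. The knockout had 44.7 and 45.6 FPKM and then 33.6 and 32.9 FPKM, and the 4 groups were separate. Cdk2 fell by 0.66 in wild type (SE 0.04, adjusted p = 8.2e-06) and by 0.43 in the knockout (SE 0.04, adjusted p = 1e-04). Between genotypes the log2 difference was -0.45 in 2iL (adjusted p = 5.2e-05) and -0.22 at 48 h (adjusted p = 0.0014). The interaction of 0.23 (SE 0.05, adjusted p = 0.013) was lost without the first knockout 48 h library (adjusted p = 0.054) and with quantile normalization (0.057), with 0.008 to 0.057 over all alternatives.

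Ratios taken within a library do not depend on how libraries were scaled against each other. The transcript ratio of the inhibitor Cdkn1a to Cdk2 was 1.08 and 1.01 in wild type in 2iL and 0.534 and 0.557 at 48 h, against 5.51 and 5.55 and then 4.30 and 4.29 in the knockout. Cdkn1a over Ccne1 was 0.760 and 0.769, then 0.190 and 0.207 in wild type. In the knockout it was 6.34 and 6.41, then 3.48 and 3.28. So Cdkn1a was below Ccne1 in all 4 wild-type libraries and above it in all 4 knockout libraries. Ccne1 over Ccnd1 was 1.32 and 1.31, then 1.56 and 1.50 in wild type, and between 0.529 and 0.554 in the knockout libraries. Ccne1 over Cdk2 was 1.42 and 1.31, then 2.81 and 2.69 in wild type, and 0.870 and 0.866, then 1.24 and 1.31 in the knockout.

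The order of the levels changed with genotype. In wild type in 2iL the mean FPKM ran from Ccne1 and Ccnd3, whose ranges overlapped, through Cdkn1a and Ccnd1, which also overlapped, to Cdk2, Cdkn1b, Rbl1, Rbl2, Rb1 and Ccnd2. At 48 h the wild-type order was Ccne1, Ccnd1, Ccnd3, Cdk2, Cdkn1a, Cdkn1b, Rbl1, Rb1, Rbl2 and Ccnd2, with no neighbours overlapping. In the knockout Cdkn1a came first in both conditions. It was followed in 2iL by Ccnd3, Ccnd1, Cdk2, Ccne1, Rbl1, Cdkn1b, Rbl2, Ccnd2 and Rb1, without overlap of neighbours. At 48 h it was followed by Ccnd1, Ccnd3, Ccne1, Cdk2, Cdkn1b, Rbl1, Rb1, Rbl2 and Ccnd2, and there Rb1 and Rbl2 overlapped.

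Counted over the 10 genes, 8 changed in wild type over 48 h (3 rose and 5 fell), where 56.5% of all entries tested were called, 30.9% as rises and 25.6% as falls. In the knockout 6 changed (2 rose, 4 fell) against 48.3% of all entries, 26.5% rising and 21.8% falling. Between genotypes 9 differed in 2iL (7 higher in the knockout, 2 lower) against 63.4%, of which 30.6% of all entries were higher and 32.8% lower. At 48 h 9 differed, with 7 higher and 2 lower, against 71.8% of all entries, 33.3% higher and 38.5% lower. The interaction was called for 4 (3 positive, 1 negative) against 42.8%, 21.1% positive and 21.7% negative. Against this background, how many members were called is not a result about the members. Ccnd2 entered these counts only through its level in the knockout.

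The median log2 difference of the members in 2iL was 0.56 between knockout and wild type, against -0.02 over all entries tested, and at 48 h it was 0.67 against -0.05. Both medians include Ccnd2, which passed the filter only through the knockout and had to be higher there. The contrast with all entries therefore supports nothing about the members. For the changes over time the median of the members was -0.28 in wild type and 0.04 in the knockout, against 0.03 over all entries in each. Each change over time shares libraries with each genotype difference, so these values for a gene are not separate measurements.

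**Figure D3:**
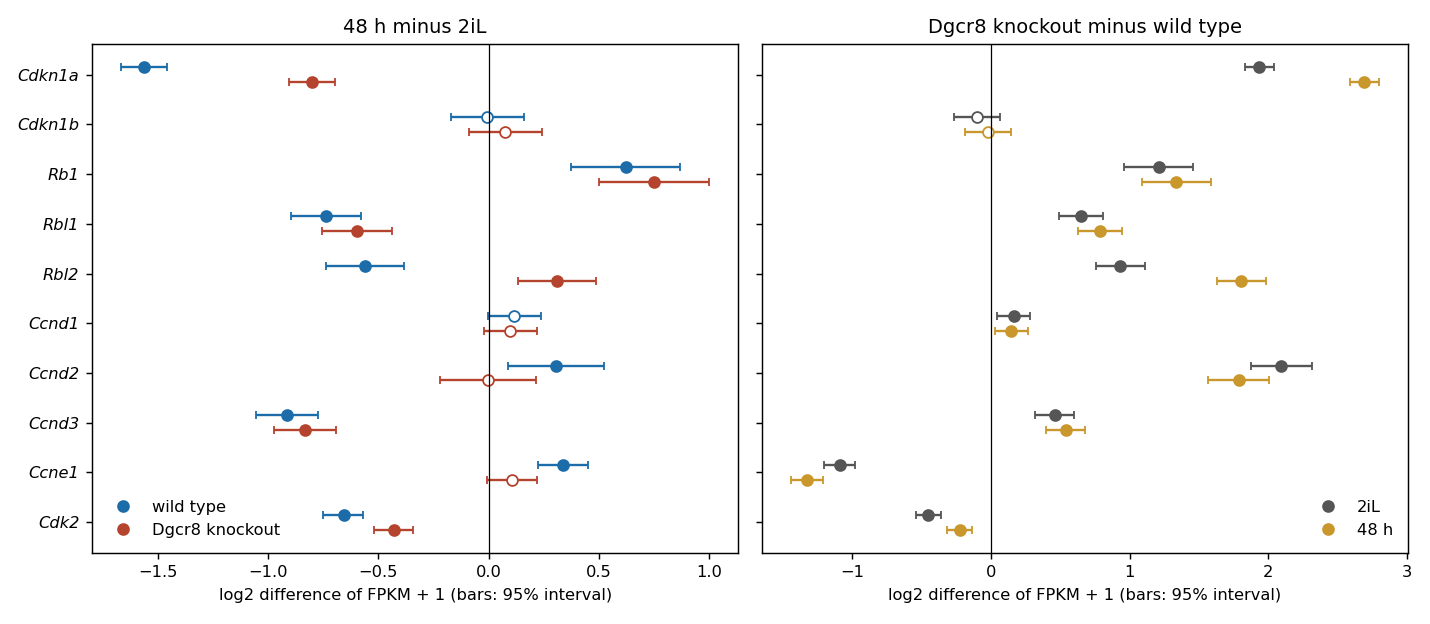
Log2 difference of FPKM + 1 for each of the 10 genes with its 95% interval from limma: left, 48 h minus 2iL in each genotype; right, knockout minus wild type in each condition; filled points have an adjusted p under 0.05 and open points do not. Rbl2 lies on opposite sides of 0 for the 2 genotypes on the left (-0.56 and 0.31), and Ccne1 and Cdk2 are the called genes left of 0 on the right.

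Other genes whose pattern over the 8 libraries was most like that of a member were found by the Pearson r of log2(FPKM + 1), as a description over libraries that share their groups. For Cdkn1a these were Capns1 (r = 0.9996), Adam19 (0.9995) and Gstm1 (0.9984). Capns1 was at 131 and 129 FPKM in wild type in 2iL, 73.9 and 75.7 at 48 h, and at 241 and 246, then 191 and 189 in the knockout. For Rb1 they were Sav1 (0.9981), Pgm2l1 (0.9978) and Zswim6 (0.9973). For Ccne1 they were Abce1 (0.9991), Nle1 (0.9986) and Ipo5 (0.9985).

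The other CDK inhibitors were split. For this list and the next, 30.6% of all entries tested were higher and 32.8% lower in the knockout in 2iL, and 33.3% and 38.5% at 48 h. Of the 5 inhibitors tested, 3 were higher and 1 lower in the knockout in 2iL (median 0.37) and again at 48 h (median 0.48). Cdkn2c, 1 of the 3 and the median gene at 48 h, was at 0.355 to 0.868 FPKM in wild type and 1.16 to 1.66 FPKM in the knockout, and passed the filter only through the knockout. Cdkn2b, which encodes the Cdk4 and Cdk6 inhibitor p15, was at 2.32 and 1.83 FPKM in wild type in 2iL, 1.95 and 1.81 at 48 h, then 3.51 and 2.93 in the knockout in 2iL and 10.5 and 10.4 at 48 h. Its difference at 48 h was 2.00 (limma, adjusted p = 3.7e-06) and its interaction 1.54 (adjusted p = 0.00027). Cdkn1c, encoding p57, went the other way between genotypes, at -0.55 in 2iL (adjusted p = 0.0025), and rose over 48 h by 1.50 in wild type and 1.48 in the knockout. Of the kinases, cyclins and activators outside the members, 1 was higher and 2 lower of 8 tested in 2iL (Ccna1 did not pass the filter) and 2 were higher and 2 lower at 48 h. Cdk6 was among the higher ones (0.40 and 0.49). Cdk4, named here as a main partner of the D cyclins after its values were seen, was at 576 to 711 FPKM in all 8 libraries.

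E2F and DP factors and their regulators included genes higher and genes lower in the knockout. Of all entries tested, 30.6% were higher and 32.8% lower in 2iL, and 33.3% and 38.5% at 48 h. Counts near these shares are not a result about the lists. Of 10 E2F and DP genes, 4 were higher and 4 lower in the knockout in 2iL, and 4 were higher and 5 lower at 48 h. The lower ones included E2f4, the main partner of p107 and p130, at -1.46 in 2iL and -1.16 at 48 h. The DP gene Tfdp1 was also lower, at -1.20 and -1.56. The other DP gene, Tfdp2, went the other way, at 0.35 in 2iL and 1.05 at 48 h, and E2f5 was higher by 0.59 and 0.30. E2f2, one of the activating E2Fs, was higher at 48 h by 1.63 (adjusted p = 1.1e-05). Among 6 DREAM partners, 2 were higher and 2 lower in 2iL and 3 were higher and 2 lower at 48 h. Mybl2, encoding B-MYB, fell from 192 and 187 FPKM to 77.4 and 80.8 in wild type and from 150 and 150 to 117 and 111 in the knockout, with an interaction of 0.85 (adjusted p = 6.1e-05). Of 7 ubiquitin ligase genes of this transition, 1 was higher and 2 lower in 2iL and 3 were higher and 3 lower at 48 h. Fbxw7, whose product marks cyclin E for destruction, was higher by 1.00 and 1.56.

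The E2F target genes, which include the MCM helicase subunits and nucleotide synthesis enzymes, were mostly lower in the knockout. Of 13 tested of 14 listed (Cdt1 had no matched row), 10 were lower and 1 higher in 2iL (median -0.28), where 32.8% of all entries were lower and 30.6% higher. At 48 h 9 were lower and 3 higher (median -0.18), against 38.5% and 33.3% of all entries. Mcm5 was lower by the most in 2iL, at -1.18 (adjusted p = 2.1e-06), followed by Rrm2 at -0.75, while Mcm7 was higher by 0.29. Over 48 h, 8 of the 13 fell and 0 rose in wild type, where 25.6% of all entries fell and 30.9% rose. In the knockout 5 rose and 2 fell, against 26.5% and 21.8% of all entries. The interaction was called for 5, each positive, against 42.8% of all entries called and 21.1% called positive. Mitotic genes were lower for 8 of 10 in 2iL (median -0.33, Ccnb1 at -0.90 and Plk1 at -0.57), with 0 higher. At 48 h 4 were lower and 2 higher.

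Genes of the p53 pathway other than Cdkn1a were higher in the knockout for 7 of 13 in 2iL, with 0 lower (median 0.47), and for 10 of 13 at 48 h, with 2 lower (median 0.63). Of all entries, 30.6% were higher and 32.8% lower in 2iL, and 33.3% and 38.5% at 48 h. Btg2, an antiproliferative gene, was at 8.42 and 8.39 FPKM in wild type in 2iL and 8.36 and 8.26 at 48 h, against 18.1 and 19.3, then 56.5 and 57.8 in the knockout. Pmaip1, which encodes the apoptosis factor NOXA, was higher by 1.59 in 2iL and was lower at 48 h (-0.60). Over 48 h in the knockout 10 of the 13 rose and 0 fell, against 26.5% of all entries rising, while Cdkn1a fell. In wild type 5 rose and 2 fell, against 30.9% and 25.6% of all entries. Of 6 genes upstream of cyclin D and Cdkn1b, 4 were higher and 2 lower in the knockout in 2iL, where Myc was at -1.06 and Foxo1 at 0.67. Of all entries, 30.6% were higher and 32.8% lower in that comparison. At 48 h 4 were higher and 1 lower, against 33.3% and 38.5% of all entries.

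**Figure D4:**
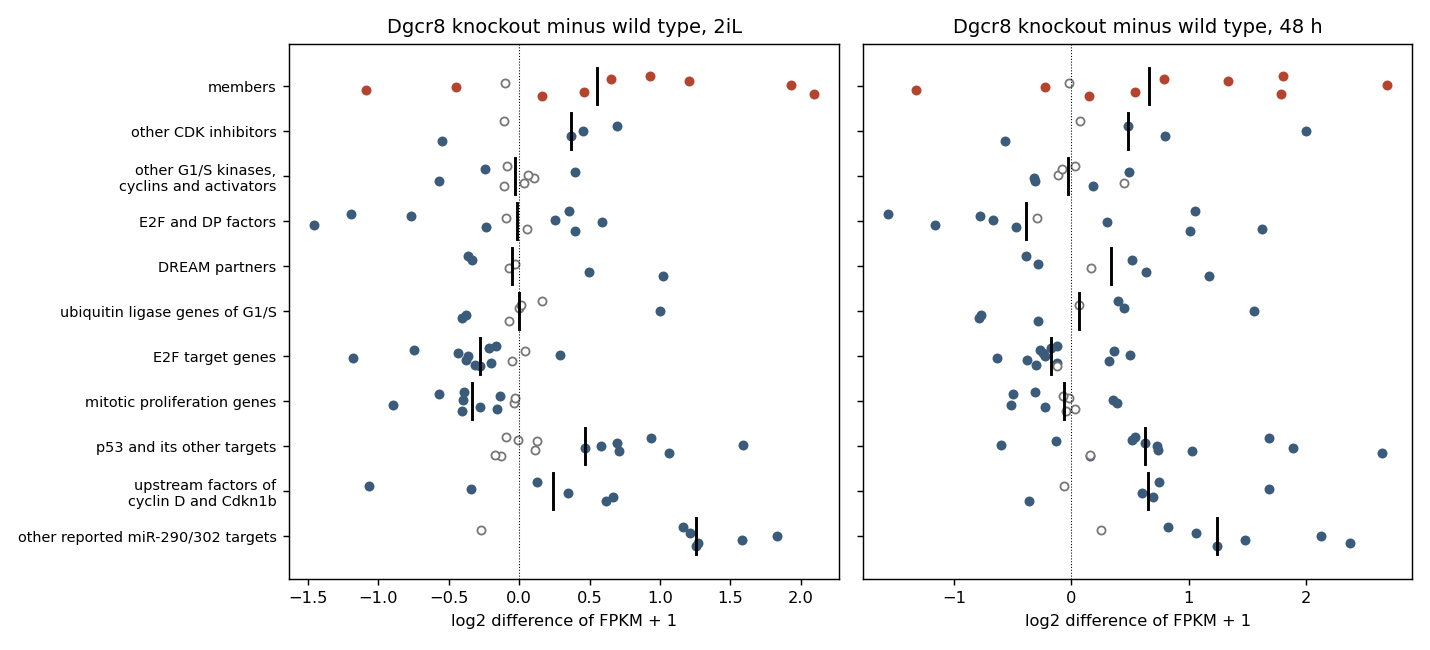
Log2 difference of FPKM + 1 between knockout and wild type for each tested gene of the 10 members and the 10 pathway lists, in 2iL (left) and at 48 h (right); filled points have an adjusted p under 0.05, open points do not, and the black bar is the list's median. The medians in 2iL are 0.56 for the members, -0.28 for E2F target genes, -0.33 for mitotic genes, 0.47 for the p53 genes and 1.26 for the other reported miR-290 and miR-302 targets, of which Irf2 and Tgfbr2 passed the filter only through the knockout, as did Ccnd2 among the members and Cdkn2c among the other CDK inhibitors.

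Cdkn1a and Rbl2 are reported targets of miRNAs that share the seed AAGUGCU, and 7 other reported targets of these miRNAs were read from the same fit. Of these, 6 were higher in the knockout and 0 lower, in 2iL (median 1.26) and at 48 h (median 1.24), where 30.6% and 33.3% of all entries were higher. Irf2 and Tgfbr2, among the 6, were under 0.2 FPKM in all wild-type libraries and passed the filter only through the knockout, so they had to be higher and the counts and medians with them support nothing. Lats2, the Hippo pathway kinase, was at 1.31 and 0.831 FPKM in wild type in 2iL and at 6.33 and 6.31 in the knockout, a log2 difference of 1.83. Ei24 was higher by 1.27 in 2iL and by 2.37 at 48 h. These genes were listed with earlier results on these data in view, so their direction is no independent evidence.

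The 5 mature miRNAs with this seed in the sequence table used are printed because they share bases 2 to 8, in capitals. miR-302a-3p had no entry there and is named only. All are RefSeq sequences, 5′ to 3′. The first 3 come from the miR-290 cluster at chr7:3218968-3218989, chr7:3220691-3220712 and chr7:3220815-3220837, and the others from the miR-302 cluster at chr3:127545275-127545297 and chr3:127545665-127545687, on GRCm38.p6.
miR-291a-3p: aAAGUGCUuccacuuugugugc
miR-294-3p: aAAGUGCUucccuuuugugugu
miR-295-3p: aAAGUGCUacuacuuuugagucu
miR-302b-3p: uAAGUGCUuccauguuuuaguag
miR-302d-3p: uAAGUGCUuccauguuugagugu
The 5 were read as the deposited relative signal, whose columns each sum to 110000. miR-295-3p had the highest signal at 0 h, with 4709 and 4676, and was at 3711 and 3073 at 48 h. miR-302b-3p had 1244 and 1409 at 0 h, 1032 and 1054 at 12 h, 1253 and 1507 at 24 h, and 5141 and 4541 at 48 h. The 48 h libraries were separate from the other 6 for miR-302b-3p and for miR-302d-3p, which went from 533 and 493 to 2504 and 2184.

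Summed over these 5, the signal was 11427 and 12185 at 0 h, 11151 and 10780 at 12 h, 9452 and 9990 at 24 h, and 15365 and 13394 at 48 h. That is 10.4% and 11.1% of the total at 0 h and 14.0% and 12.2% at 48 h. The miR-302 members went from 1778 and 1901 to 7645 and 6725, a log2 ratio of means of 1.97. The miR-290 members went from 9649 and 10284 to 7720 and 6669, a log2 ratio of -0.47, and the sum of both had a log2 ratio of 0.29. miR-302a-3p, left out of these sums, had a signal of 144 and 172 at 0 h and 676 and 658 at 48 h in the deposited table. Over the same 48 h in wild type, Cdkn1a and Rbl2 transcripts fell. Of the 7 other reported targets, 2 rose (Lats2 by 0.57 and Rhoc by 0.96), 1 fell (Ei24 by 0.80) and 4 were not called. Of all entries tested, 30.9% rose and 25.6% fell in wild type, so these counts are not a result about the targets. Among those not called, Irf2 was at 0 to 0.106 FPKM and Tgfbr2 at 0.0119 to 0.179 FPKM in wild type. At such levels the lack of a call says nothing. Cdkn1a also fell in the knockout, by 0.80. A link between the miRNA signal and these changes was not tested. No small RNA of the knockout was analysed here, so miRNA signal and transcript levels were not compared between genotypes.

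**Figure D5:**
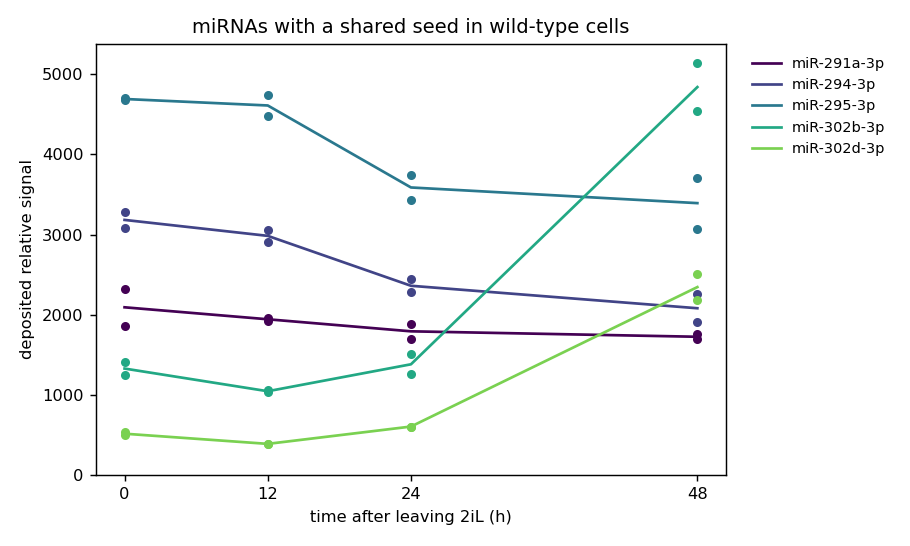
Deposited relative signal of the 5 miRNAs with the seed AAGUGCU in wild type at 0, 12, 24 and 48 h of differentiation; points are the 2 libraries and lines join the means. The miR-302b-3p points stay at 1032 to 1507 until 24 h and are at 5141 and 4541 at 48 h, while the 3 miRNAs of the miR-290 cluster have lower means at 48 h than at 0 h.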

How the data were processed

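For gene expression, the authors deposited 1 table of FPKM values; per the submitters' processing notes, STAR 2.5.0, Cufflinks 2.2.1 and the genome build mm10 were used. Per the labels' protocols the libraries were made with a dUTP (strand-marking) method; no source used here gives the strand setting of the counting, so overlapping genes may share reads. The table held 41258 rows for 41202 identifiers, of which 40071 had a symbol, and the 56 repeat entries were never joined. The small RNA table deposited by the authors gives a relative signal for each miRNA arm; no source used here describes trimming or matching.

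With limma 3.58.1 in R 4.3.3, log2(FPKM + 1) was fitted for the 13172 entries that reached 1 FPKM in 2 or more of the 8 libraries, with 4 group means and an intensity trend (residual degrees of freedom 4, prior 3.11). The 5 comparisons were adjusted over all entries by Benjamini-Hochberg, with a threshold of 0.05. The fit was run on simulated normal noise with planted differences, where only the return of the planted sizes as median estimates was required. This does not measure the error rate in these libraries. Alternatives were pseudocounts of 0.1 and 0.5, no filter, a mean FPKM of at least 5, median-ratio scaling, quantile normalization, a replicate block, no trend, and leaving out each library. The members, the pathway and marker lists, and the rule for naming genes (all members, and of each list up to 3 called genes per direction and comparison with the largest difference) were chosen with earlier results of these data known. Promoter and miRNA sequences are RefSeq's (GRCm38.p6), matched by symbol or miRNA name: 7 of 10 members had promoter windows.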

Additional observations from a re-analysis of the deposited data

Results flagged for a closer look

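The change over 48 h differed between the genotypes, by limma's test of the difference itself, for 4 of the 10 genes. On the log2 scale the knockout change minus the wild-type change was 0.758 for Cdkn1a, 0.872 for Rbl2, -0.232 for Ccne1 and 0.227 for Cdk2, where 42.8% of all entries tested were called. The count of 4 is near that share and is not a result about the members. The calls for Ccne1 and Cdk2 were lost under some of the alternatives. For Rbl2 the changes had opposite signs. Signal also appeared in an entry that no comparison used: the second row under the Rb1 identifier was at 0 in all wild-type libraries, at 0.523 FPKM in the first knockout library in 2iL and at 0.212 FPKM in the first knockout library at 48 h, and at 0 in the second library of each of these groups. Groups of 2 libraries allow no check for a library that stands apart.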

How the results depend on the processing

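Of 785 recomputed log2 differences of the members, 747 kept their direction and their side of the threshold. Another 24 lost their call, 2 gained one and 12 changed sign, each of the 12 being uncalled both ways. The sign changes were the interactions of Rb1 (-0.05 with a pseudocount of 0.1) and Ccnd3 (-0.049 with quantile normalization) and Cdkn1b at 48 h between genotypes (0.039 with median-ratio scaling). Leaving out 1 library at a time gave the others: Cdkn1b ran from -0.096 to 0.085 in wild type, from -0.111 to 0.069 between genotypes at 48 h and from -0.01 to 0.171 for the interaction, Ccnd1 from -0.064 to 0.026 for the interaction, and Ccnd2 from -0.039 to 0.035 in the knockout. The calls gained were the interaction of Ccnd2 with a pseudocount of 0.1 (-0.77, limma adjusted p = 0.049) and the wild-type change of Ccnd1 with quantile normalization (0.16, adjusted p = 0.015). With a mean FPKM of at least 5, Rb1, Rbl2 and Ccnd2 were not tested, 5 members were called for the wild-type change in place of 8, and 3612 entries were called for the interaction in place of 5641. Leaving out each library in turn gave 7 to 8 members called for the wild-type change, 5 to 6 for the knockout change, 8 to 9 for each genotype difference and 2 to 4 for the interaction, where the 2 came without the first knockout 48 h library; the lone library left is then assumed to vary like the other groups. The log2 ratio of the summed miRNA signal was 0.18 to 0.38 when libraries were left out, and 0.33 with miR-302a-3p included, an alternative chosen after seeing the data. Same-numbered libraries had deviations correlated at -0.153 to 0.18, and with 2 libraries per group this cannot tell whether they share more than a number. With the replicate block 7222, 6102, 8195, 9323 and 5364 entries were called in the 5 comparisons and, among the members, only the 48 h genotype difference of Ccnd1 lost its call (0.15, adjusted p = 0.053). With 2 libraries per group and unknown read depth, differences near the standard errors (0.04 to 0.11, and up to 0.15 for the interaction) were not resolved, and Rb1, Rbl2 and Ccnd2, all below 10 FPKM, depend most on the pseudocount.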
